A study of Mus musculus with 2 samples.

Results

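Hedgehog signalling in the embryonic mouse forebrain was described through 10 genes, namely the ligand Shh, the receptor Ptch1, the co-receptors Gas1, Boc and Cdon, the signal transducer Smo, the inhibitor Sufu and the transcription factors Gli1, Gli2 and Gli3. They were taken by name, not by measured value, from the gene and transcript tables that use GENCODE release M21, and all 10 were present among 55536 annotated genes. Their 47 annotated transcripts were followed as well. The RNA came from forebrain of B6NCrl embryos of mixed sex at day 12.5, in 2 libraries made from 10 ng of RNA each. Library 1 pooled 120 embryos and library 2 pooled 68 embryos, and they are named pool 1 and pool 2 here. Where a pair of values is joined by "and" without naming the pools, pool 1 comes before pool 2. The labels name no treatment or mutation, and they form 1 group with no contrast. Polyadenylated RNA was copied from an oligo-dT primer, the cDNA was amplified and tagmented, and ERCC spike-in RNAs were added.

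Hedgehog ligands are secreted proteins that bind Ptch1, which in the absence of ligand holds the membrane protein Smo inactive. When Smo is freed it acts at the primary cilium on complexes of Sufu with Gli proteins, so that full-length Gli activators replace the shortened Gli repressors. In the forebrain Shh is made in ventral domains and at a boundary within the diencephalon, and it is known for specifying ventral telencephalon and hypothalamus, while Gli3 repressor protects dorsal identity. Ptch1 and Gli1 are themselves targets of the pathway, whereas Gas1, Boc and Cdon help cells bind the ligand.

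The summed gene counts were 33373843 and 34406648. TPM is an abundance per transcript length, scaled to 1000000 per library, and ± gives the SD (n = 2). A gene was taken as detected where its TPM was 1 or more in each pool. The forebrain marker list was detected in 5 of 5 cases, led by Lhx2 at 164 ± 16.1 TPM. Of the midbrain and hindbrain list 0 of 5 members reached that level, and En1 was its highest at 0.81 ± 0.170 TPM. Markers of other tissues were detected in both pools. The 12 mesenchyme and meninges markers, led by Col3a1, were detected in 12 of 12 cases and together gave 684 and 831 TPM. The 8 surface epithelium markers, led by Epcam, were detected in 7 of 8 cases and together gave 55.6 and 51.3 TPM. In bulk RNA, fewer expressing cells and less RNA per cell cannot be told apart. The labels number the pools as biological replicates. An exact two-sided sign-flip test over 2 pools cannot go below p = 0.5, so no test was run.

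All 10 genes were detected, against a background of 58.9% of annotated protein-coding genes. Their median was 21.1 TPM, from 21.6 in pool 1 and 20.5 in pool 2, beside a median of 21.9 TPM over the 12966 detected protein-coding genes. Of the 10 genes, 5 lay above that median. Within the set the levels ran from Gas1 at 114 TPM to Gli1 at 2.66 TPM. In descending order the means were those of Gas1, Gli3, Smo, Sufu, Boc, Ptch1, Cdon, Gli2, Shh and Gli1. Of the 9 pairs of neighbours in that order, 2 had overlapping ranges over the pools, which were Gli3 with Smo and Shh with Gli1. The remaining 7 pairs did not overlap, but Ptch1 exceeded Cdon by a ratio of only 1.03, and with the older annotation, release M4, that pair changed places (15.9 TPM for Ptch1 and 19.1 TPM for Cdon).

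**Figure D1:**
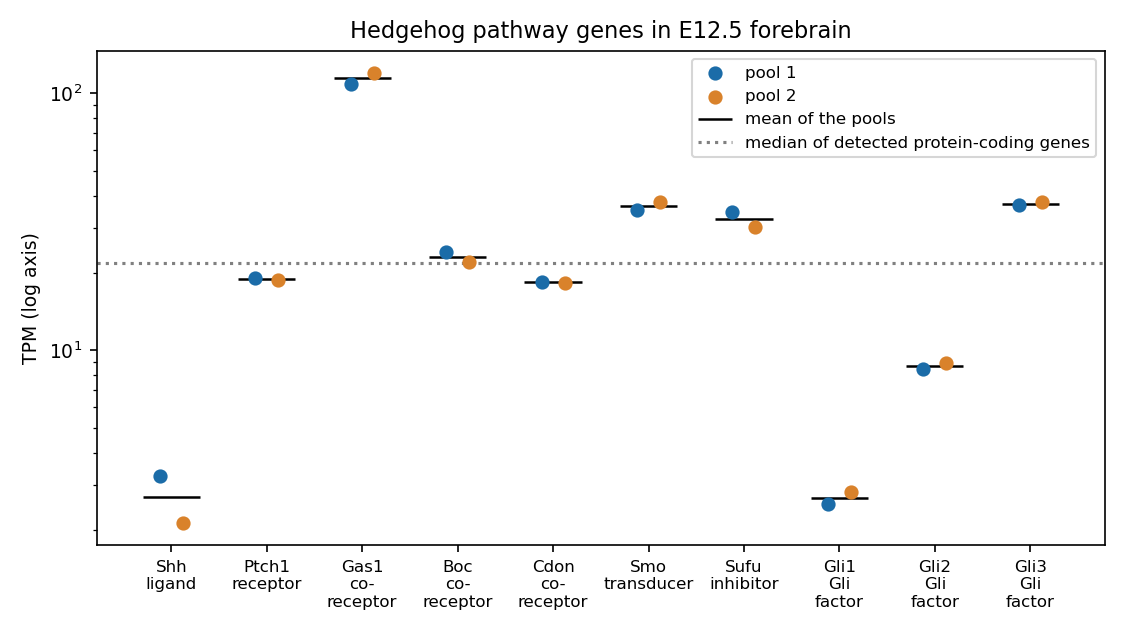
TPM of each gene in pool 1 and pool 2 on a log axis, ordered by role, with the mean of the pools as a short line and the median of detected protein-coding genes as a dotted line. Gas1 stands alone above 100 TPM, and Shh and Gli1 share the lowest place near 2.7 TPM.

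The ligand was near the bottom of the range. Shh (chromosome 5, 28456815 to 28467256, minus strand, GRCm38) read 3.24 and 2.13 TPM, a mean of 2.69 ± 0.785 TPM, from 189 and 129 estimated counts. Pool 1 was the higher, and the spread was wide for the level. Shh stood at the 9.6th percentile of detected protein-coding genes. Its single annotated transcript, Shh-201, has 3 exons, 1311 coding bases and 2847 bases in all. On the opposite strand, exons of 9530036O11Rik overlap those of Shh by 446 bases and exons of Gm26894 by 361 bases. Both neighbours were low, at 0.02 and 0 TPM for 9530036O11Rik and 0.27 and 0.24 TPM for Gm26894. Whether the authors counted by strand is not stated, and without strand reads over such shared stretches cannot be told apart. The other Hedgehog ligands were lower still. Dhh read 0.35 and 0.40 TPM, and Ihh read 0.02 and 0.15 TPM from 1 and 8 counts.

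The receptor was more abundant than its ligand in each pool. Ptch1 (chromosome 13, 63508328 to 63573598, minus strand) read 19.05 and 18.8 TPM, from 2468 and 2472 counts. Those values are nearly equal, with a mean of 18.9 ± 0.177 TPM. The ratio of Ptch1 to Shh within a library was 5.88 in pool 1 and 8.83 in pool 2, with Ptch1 nearly level and Shh lower in pool 2. Smo (chromosome 6, 29735503 to 29761365, plus strand), the transducer that Ptch1 restrains, read 35.2 and 37.9 TPM. Smo exceeded Ptch1 by 1.85 times in pool 1 and 2.01 times in pool 2. The ligand-trapping membrane protein Hhip, a known target of the pathway, was lower at 2.36 ± 0.177 TPM.

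Ptch1 reads were assigned to models with different 5′ ends and different annotated coding starts. Of its 10 annotated transcripts, 5 held at least 5% of its TPM in a pool. Ptch1-202, which is coding and complete, led with 54.2% in pool 1 and 54.0% in pool 2. Ptch1-201, the complete model whose coding part begins in its own exon 1, held 8.89% and 7.79%. Ptch1-204, which GENCODE lists as a target of nonsense-mediated decay, held 10.3% and 7.02%. The order of Ptch1-202 over each of the other models was the same in both pools, whereas Ptch1-204 lay above Ptch1-201 in pool 1 and below it in pool 2. The opening 60 coding bases of these transcripts, shown because each model has its own annotated coding start, come from the GENCODE M21 transcripts (GRCm38) and are given 5′ to 3′ with the start codon in capitals.
Ptch1-201: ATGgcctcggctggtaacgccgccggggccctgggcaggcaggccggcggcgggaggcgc
Ptch1-202: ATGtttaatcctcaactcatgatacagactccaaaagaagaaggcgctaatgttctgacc
Ptch1-204: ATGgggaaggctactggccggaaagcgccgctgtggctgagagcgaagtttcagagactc

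In Ptch1-201 the coding part starts at position 63565520 of chromosome 13, in exon 1, which contributes 159 coding bases to a total of 4302. In Ptch1-202 it starts at position 63548126, in exon 3, for a total of 3891 coding bases, the shorter of the complete coding parts. That exon is also coding in Ptch1-201 and Ptch1-204, so the stretch printed for Ptch1-202 is common to them. In Ptch1-204 the coding part starts at position 63573094, with 3 coding bases in exon 1, and continues in an exon shared with Ptch1-201. The 5′ end of Ptch1-202 lies 1200 bases from that of Ptch1-201 and 8925 bases from that of Ptch1-204. These models differ over short stretches. Ptch1-202 has 78 bases that lie in no other Ptch1 transcript, Ptch1-204 has 158 and Ptch1-201 has 375. The share of estimated counts gave the same leader, at 61.3% and 62.7% for Ptch1-202.

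The promoter window that RefSeq gives for Ptch1 (build GRCm38.p6, 250 bases before to 50 after the start) has its start exactly at the 5′ end of Ptch1-201, and 1200 bases from that of the leading Ptch1-202. It is printed for the 250 bases upstream of that start, chr13:63565736-63565985 on the minus strand, with the motif GGGCGG, the core of the GC box, in capitals.
Ptch1 upstream: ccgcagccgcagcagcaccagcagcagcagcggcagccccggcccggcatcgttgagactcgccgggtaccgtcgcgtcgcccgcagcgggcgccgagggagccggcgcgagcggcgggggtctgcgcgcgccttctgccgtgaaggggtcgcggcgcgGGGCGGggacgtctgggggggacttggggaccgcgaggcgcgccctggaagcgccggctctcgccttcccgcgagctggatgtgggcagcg

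This window holds 47 CpG dinucleotides, and 98.6% of all promoter windows hold fewer. RefSeq windows were found for 7 of the 10 genes, which were Ptch1, Smo, Sufu, Gas1, Cdon, Gli2 and Gli3. The motif GGGCGG, read on both strands, was in 5 of these 7 windows and in 35.7% of all 32851 windows. The Gli-binding consensus GACCACCCA, read on both strands, was in 0 of the 7 and in 0.253% of all windows. A match describes letters only, and its absence says nothing of sites elsewhere. The windows of Gli2 and Sufu start exactly at the leading transcript. Those of Gas1, Smo and Gli3 start 170, 197 and 257 bases from it. That of Cdon starts 28488 bases from the leading Cdon-206 and coincides with Cdon-201, a transcript listed at 0 counts in both pools.

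Much of the remaining Ptch1 TPM lay in models without a complete coding part. Ptch1-210, a single-exon model of 2216 bases annotated as a retained intron, held 18.0% of Ptch1 TPM in pool 1 and 24.0% in pool 2 but only 6.24% and 8.53% of its counts. Ptch1-206, a decay target of 10383 bases without an annotated start, held 5.03% and 5.59% of TPM, but 0.6% and 1.51% with release M4. Release M4 has neither Ptch1-210 nor 2 further short models, and those 3 together held 21.62% and 25.04% of Ptch1 TPM in the newer release. In M4 the gene read 16.3 and 15.4 TPM, or 0.839 of the M21 mean. Smo also had such a model. Its retained-intron model Smo-202, which is 1 exon of 2502 bases at the 5′ end of the gene, held 7.69% and 10.6% of TPM, and the coding Smo-201 held 92.3% and 89.4%. Ptch1-210 and Smo-202 took a greater share in pool 2, while another retained-intron model of Ptch1, Ptch1-208, held 3.63% and 1.08% on under 5 counts.

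Co-receptor transcripts were dominated by Gas1. Gas1 (chromosome 13, 60174405 to 60177365, minus strand), a GPI-anchored protein encoded by a single exon, read 109 and 119.8 TPM, from 6633 and 7581 counts. It stood at the 89.1st percentile of detected protein-coding genes. Boc (chromosome 16, 44485049 to 44558897, minus strand), an immunoglobulin and fibronectin repeat receptor, read 24.2 and 22.1 TPM. Cdon (chromosome 9, 35421128 to 35507652, plus strand), its paralogue, read 18.5 and 18.4 TPM. Of the summed TPM of these co-receptors, Gas1 held 73.3 ± 2.00%, Boc 14.9 ± 1.5% and Cdon 11.8 ± 0.502%. Gas1 exceeded Boc by 4.51 times in pool 1 and 5.41 times in pool 2, and exceeded Cdon by 5.91 and 6.52 times. Boc exceeded Cdon by 1.31 times in pool 1 and 1.21 times in pool 2. The large co-receptor Lrp2, in the list of membrane regulators, was far lower at 1.26 ± 0.170 TPM. The long non-coding RNA gene Gm48488 on the opposite strand, whose exons overlap those of Gas1 by 589 bases, read 0.33 and 0.36 TPM.

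Boc and Cdon are related, and a short identical stretch was looked for because reads within it could fit either gene. In the GENCODE M21 transcripts, the longest run shared by Boc-201 and Cdon-202 was 31 bases, within the coding part of both, at position 2803 of Boc-201 and position 2911 of Cdon-202.
Boc and Cdon shared run: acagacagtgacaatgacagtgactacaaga

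This run is a small part of transcripts of 4451 and 7503 bases. Boc has 1 transcript in M21. In M4 it had another one, absent from M21, that held 95.4% of Boc TPM in pool 1 and 100% in pool 2, while Boc-201 held 4.62% and 0%. The gene level was close to that in M21, at 25.6 and 23.5 TPM in M4.

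For Cdon, most of the TPM lay in an incomplete model. Cdon-206 held 56.9% of Cdon TPM in pool 1 and 59.99% in pool 2. Its annotation carries no 3′ end. It has 11 exons and 2222 bases, it shares 8 of these exons exactly with the complete Cdon-202, and only 152 of its bases are in no other Cdon transcript. Cdon-202, with 20 exons, 7503 bases and 3750 coding bases, held 36.2% of TPM in pool 1 and 38.7% in pool 2. By estimated counts the order reversed, with Cdon-202 at 68.3% and 69.1% and Cdon-206 at 30.8% and 30.8%. Counts grow with length and TPM does not, so the leading Cdon transcript depends on the measure, in the same way in both pools. The 5′ ends of both models lie 2030 bases apart. The short model Cdon-205 was listed at 5.50% of TPM in pool 1, which is 0.776% of counts, from 11.9 counts. In pool 2 it was listed at 0 counts, which allows up to 0.178% of counts. It shares 596 of its 652 bases with Cdon-202, and its posterior mean share of TPM was 7.91% and 2.12%.

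**Figure D2:**
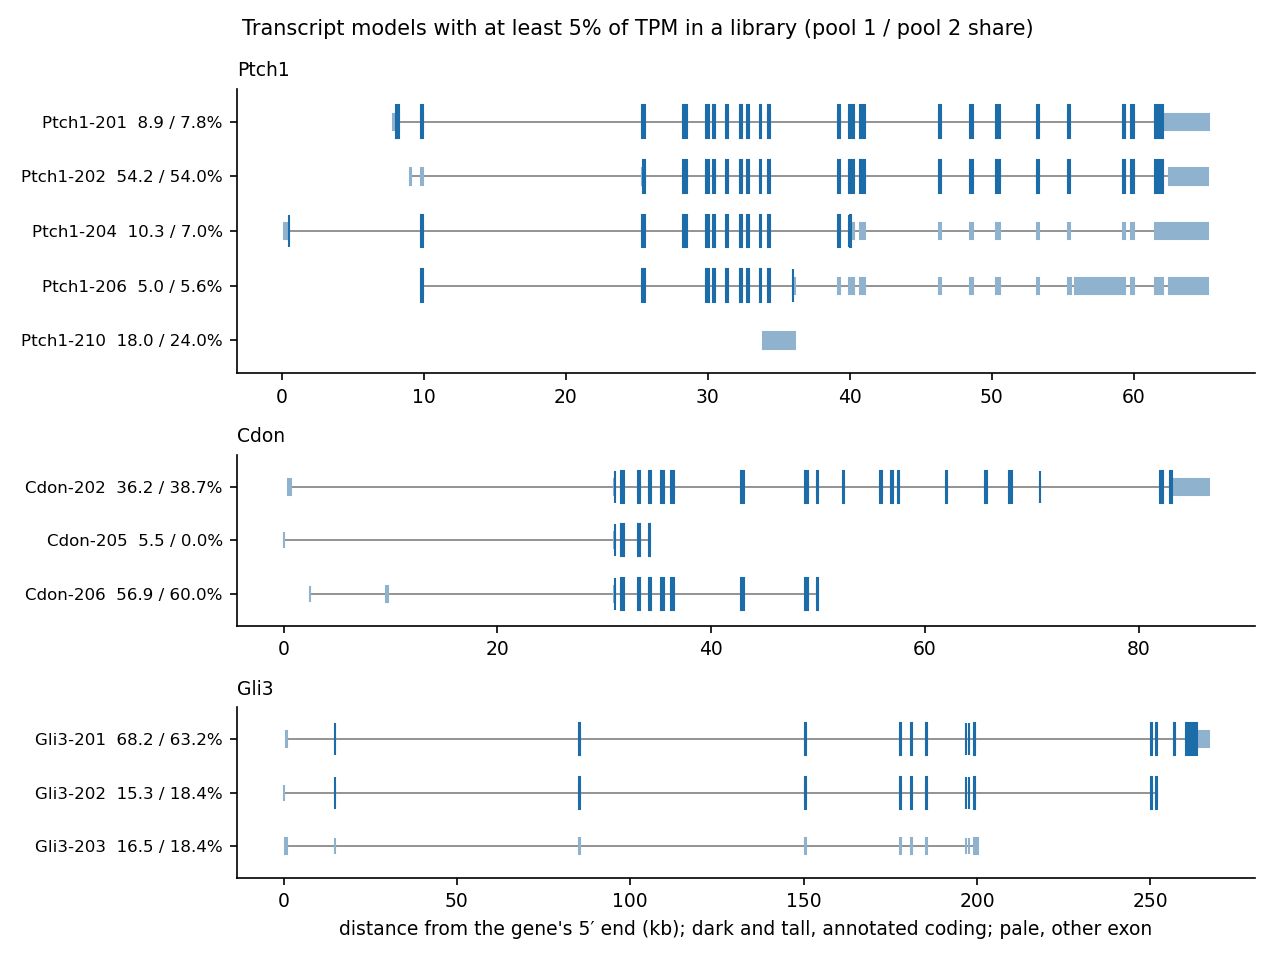
Exon maps of the Ptch1, Cdon and Gli3 transcripts that held at least 5% of the gene's TPM in a pool, drawn to scale from the 5′ end of each gene in kb, with annotated coding parts dark and other exons pale. The share of TPM in pool 1 and pool 2 stands beside each name, and Cdon-206 and Gli3-202 stop short of the 3′ end of the gene.

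Sufu, the cytoplasmic inhibitor that holds Gli proteins, was close to Smo and Gli3 in level. Sufu (chromosome 19, 46396896 to 46488804, plus strand) read 34.4 and 30.3 TPM, from 2899 and 2705 counts. Pool 1 was the higher. The ratio of Sufu to Gli3 was 0.935 in pool 1 and 0.802 in pool 2. Of its 7 transcripts the complete Sufu-201 led with 83.5% and 86.1% of TPM. Sufu-202, a complete coding model with a shorter 3′ end, held 8.41% in pool 1 and 2.33% in pool 2, from 101.3 and 25.7 counts. All of its bases also lie in other Sufu transcripts. Sufu-207, a model without a coding part, held 4.53% and 7.67%.

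Among the transcription factors Gli3 was the most abundant, Gli2 intermediate and Gli1 the lowest, in both pools. Gli3 (chromosome 13, 15463235 to 15730026, plus strand), which is known mainly as the repressor form, read 36.8 and 37.7 TPM, from 4890 and 4983 counts. Gli2 (chromosome 1, 118834132 to 119053619, minus strand), known as the main early activator, read 8.43 and 8.92 TPM. Gli1 (chromosome 10, 127329882 to 127341974, minus strand), an activator that is itself switched on by the pathway, read 2.52 and 2.80 TPM, from 175 and 223 counts. Ranges of these genes did not overlap. Gli3 held 76.7 ± 0.537% of the summed Gli TPM, Gli2 17.9 ± 0.266% and Gli1 5.47 ± 0.271%. Within a library Gli3 exceeded Gli1 by 14.6 times in pool 1 and 13.5 times in pool 2, and exceeded Gli2 by 4.36 and 4.23 times. These are RNA levels, and the processing of Gli proteins into repressors is not measured by them.

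The Gli genes share zinc fingers, so identical runs between their leading transcripts were searched for. The longest was 25 bases between Gli2-201 and Gli3-201 and 23 bases between Gli1-201 and Gli2-201, both within the coding parts, while Gli1-201 and Gli3-201 shared at most 14 bases.
Gli2 and Gli3 shared run: aagaaggagttcgtgtgccgctggc
Gli1 and Gli2 shared run: gagaagccacacaagtgcacgtt

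Each of the Gli genes had one complete coding transcript that led by TPM, accompanied by shorter models. Gli3-201, with 4749 coding bases, held 68.2% of TPM in pool 1 and 63.2% in pool 2. Gli3-202, which lacks an annotated 3′ end, held 15.4% and 18.4%, and the retained-intron model Gli3-203 held 16.5% and 18.4%. The shorter models took a greater share in pool 2. By counts Gli3-201 held 87.9% and 85.5%. For Gli1 the complete Gli1-201 held 78.9% of TPM in pool 1 and 89.0% in pool 2, and the retained-intron model Gli1-205 held 19.4% and 11.01% from only 7.21 and 4.75 counts. For Gli2 the complete Gli2-201 held 96.0% and 86.8%. Gli2-202, a non-coding model of 367 bases, was listed at 0 in pool 1 and at 13.2% of TPM in pool 2 from 6.98 counts. A few reads on a short model carry much TPM. Gli2-201 by itself read 8.09 and 7.75 TPM, the opposite order to the gene. On the opposite strand of Gli1, exons of Arhgap9 overlap by 62 bases (0.5 and 1.02 TPM). On that of Gli3, exons of Gm6556 overlap by 188 bases (1.71 and 2.06 TPM).

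Across the 10 genes, 23 transcripts held at least 5% of their gene's TPM in a pool and 17 had 0 counts in both. Complete coding models, meaning protein-coding transcripts with no missing end, held 100% of Shh, Gas1 and Boc. That value is fixed by the annotation, since Shh and Boc have 1 transcript each and both Gas1 transcripts are complete coding models. They held 93.9 ± 2.22% of Sufu, 91.4 ± 6.49% of Gli2, 90.8 ± 2.07% of Smo and 83.9 ± 7.10% of Gli1. Gli3 at 65.7 ± 3.52%, Ptch1 at 62.4 ± 0.851% and Cdon at 37.4 ± 1.75% were lower. The median over 11750 detected protein-coding genes with several transcripts was 83.1%, with a lower quartile of 60.02%. Ptch1 and Gli3 therefore lay below the median and above the lower quartile, and Cdon lay below the quartile, with 10.6% of those genes lower still. By counts the shares were 86.7% for Gli3, 72.6% for Ptch1 and 68.7% for Cdon, beside a median of 93.0% and a lower quartile of 78.8%. On that measure Ptch1 lay below the quartile too.

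**Figure D3:**
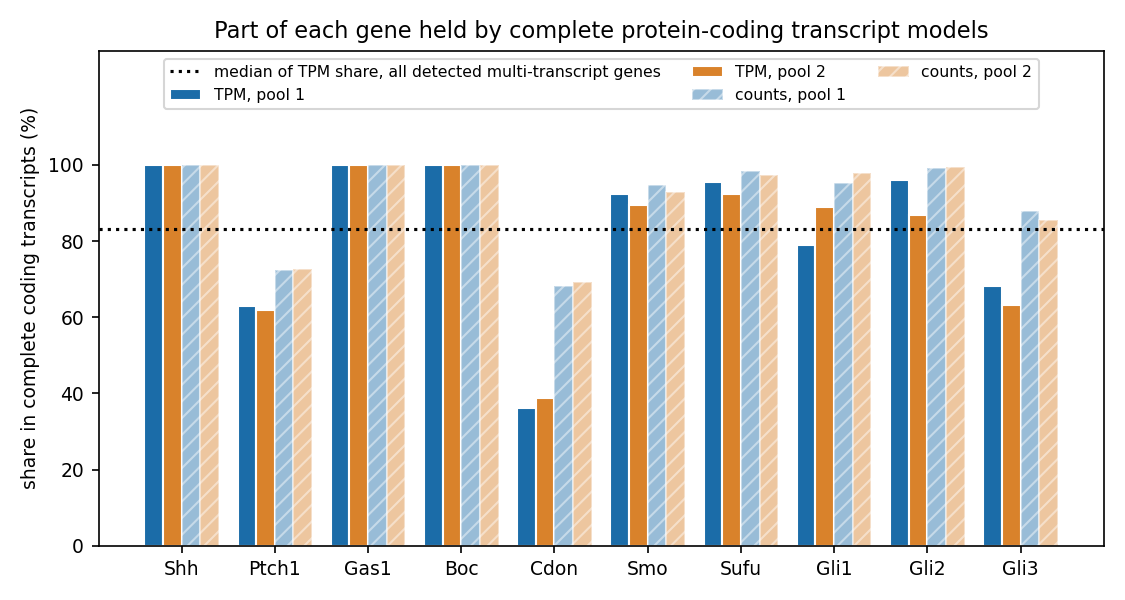
Share of each gene held by complete protein-coding transcripts, in percent, as TPM (solid bars) and as estimated counts (hatched bars) in pool 1 and pool 2. The dotted line is the median of the TPM share over detected genes with several transcripts, and Cdon, Ptch1 and Gli3 lie below it in both pools.

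Between the pools, Shh was the only one of the 10 genes past 1.5-fold, on counts scaled with edgeR's TMM factors. By that fold 11.2% of the 19063 genes averaging 10 or more counts differed, so 1 of 10 is near the background. The log2 ratio of pool 1 over pool 2 was 0.62 for Shh, with a 95% counting interval from 0.30 to 0.96. Of 2930 genes with a mean count from 0.5 to 2 times that of Shh, 93.6% had a smaller ratio in size. Each pool is 1 library, so this difference has no replicate check. Scaled by ERCC totals the ratio of Shh was 0.46, and as TPM + 1 it was 0.44, both under 1.5-fold.

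The other genes were close between the pools. Sufu was higher in pool 1 with a log2 ratio of 0.18 (interval 0.10 to 0.25), and Boc likewise with 0.15 (interval 0.06 to 0.23). Gas1 was higher in pool 2 with a ratio of -0.12 (interval -0.17 to -0.07). With Shh these are the 4 of 10 genes whose counting interval leaves out 0, which 33.0% of all genes do. The intervals hold counting error alone and treat each read as a separate molecule. Amplified cDNA carried no molecular identifiers and its reads are not separate molecules, so the intervals can be too narrow even for that error. Gli1 had the next largest ratio, -0.27, with an interval from -0.57 to 0.02 that its 175 and 223 counts leave wide. Ptch1 (0.07), Cdon (-0.05), Smo (-0.07), Gli2 (0.08) and Gli3 (0.05) were within 0.1 of 0. The median over the 10 genes was 0.06, beside 0.00 over all genes compared. ERCC scaling moved the median of all genes to -0.17, a shift common to all genes that turns any small positive ratio. Ptch1 (-0.09), Boc (-0.02), Gli2 (-0.08) and Gli3 (-0.12) therefore had the other sign on that scale, and Sufu was at 0.01.

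**Figure D4:**
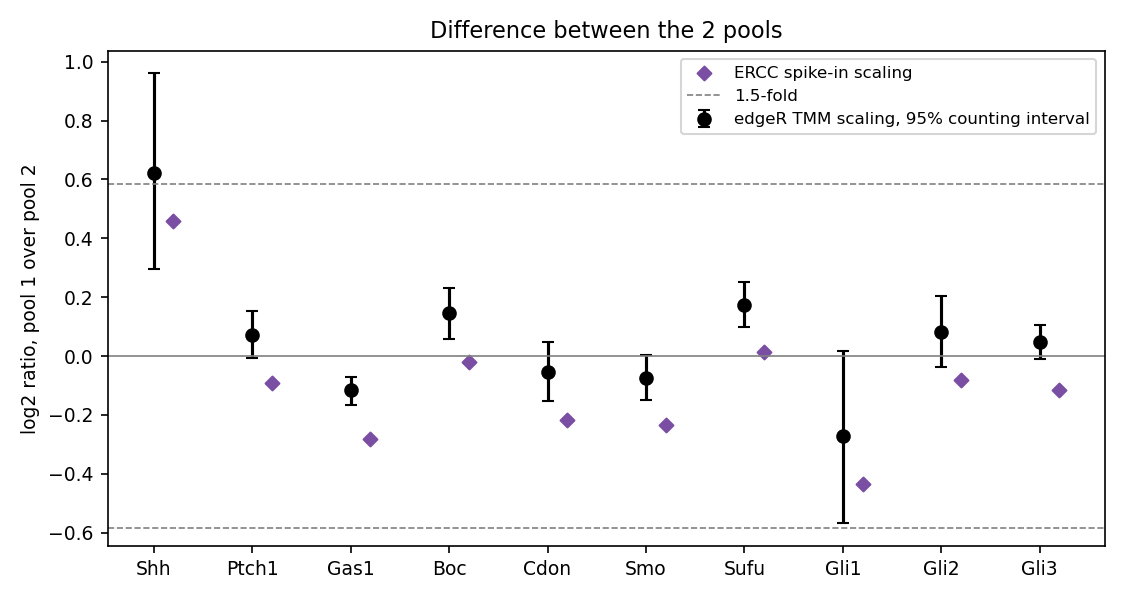
The log2 ratio of pool 1 over pool 2 for each gene with TMM scaling (black points, with bars for the 95% counting interval) and with ERCC spike-in scaling (diamonds). Shh alone lies above the upper 1.5-fold line, and its diamond lies below that line.

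Beside Shh, ventral telencephalic genes were also lower in pool 2. The medial ganglionic eminence list was lower in pool 2 for 4 of its 5 genes, 3 of them past 1.5-fold, with sums of 127 and 73.3 TPM. Nkx2-1, a ventral selector factor and known Hedgehog target, led it with 51.5 and 29.1 TPM. The exception was Nkx6-2, also a listed target (log2 ratio -0.44), and Gbx1 was nearly level with 65 counts in each pool (0.07). The list of 18 Hedgehog target genes as a whole did not go the way of the ganglionic eminence list. With TMM scaling 7 of the targets were higher in pool 1 and 11 in pool 2 (median log2 ratio -0.11). Among those 11, Foxc1 (-0.88) and Foxc2 (-0.45) also belong to the mesenchyme and meninges list and are counted again there. All 8 genes of the subpallium list, led by Dlx1, were lower in pool 2 with TMM scaling (median log2 ratio 0.50), and 3 were past 1.5-fold, beside the 11.2% of all genes past that fold. With ERCC scaling 6 of these 8 genes were lower in pool 2 and 1 was past 1.5-fold (median 0.34). Of the 5 medial ganglionic eminence genes 3 were then lower in pool 2, 2 of them past 1.5-fold (median 0.56). The other 2, Nkx6-2 and Gbx1, were higher in pool 2, and Nkx6-2 was past that fold (-0.60). The ventral midline and hypothalamus list did not follow, with 3 genes higher in pool 1 and 4 in pool 2 among 7 compared. Of these genes 2 and 3 were past 1.5-fold. Nkx2-1 belongs to this list as well, and each other gene past that fold had at most 110 counts in a pool. Surface epithelium, where Shh is also made, had 3 markers higher in pool 1 and 5 in pool 2. Mesenchyme and meninges markers lay higher in pool 2 for 12 of 12 genes (median -0.41), as did all 5 erythroid markers, led by Hbb-y (median -0.45). The choroid plexus and hem list, led by Ttr, was higher in pool 2 for 5 of 5 genes (median -0.47), with sums of 82.9 and 140.2 TPM. The mesenchyme, erythroid and choroid plexus counts of genes higher in pool 2 were the same with ERCC scaling. That scaling lowers the ratios of all genes, so it could not reduce these counts. The part of these marker lists in the Shh and Gas1 differences was not tested.

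The rest of the pathway was largely present. Of 59 further genes in the 6 pathway lists, 52 were detected, beside 58.9% of annotated protein-coding genes. The pool comparison held 58 of them, and their log2 ratios had a median of -0.02. Past 1.5-fold, 2 were higher in pool 1 and 4 were higher in pool 2. For all genes that share was 11.2% in either direction, so these counts are near the background and do not set the pathway apart. The list of other ligands and ligand release was detected in 6 of 8 cases. The release factor Scube1, at 15.0 ± 1.37 TPM, and Disp2, at 9.97 ± 1.41 TPM, were the highest of these. Dhh and Ihh were the ones not detected. Hhat, the enzyme that attaches palmitate to Hedgehog proteins, read 5.95 and 3.43 TPM, while its counts were 245 and 210 (log2 ratio 0.30). All 8 membrane regulators were detected, from the glypican Gpc3 at 81.5 ± 13.7 TPM and the ubiquitin ligase Mgrn1 at 64.6 ± 2.57 TPM down to Lrp2. On scaled counts neither list had a gene past 1.5-fold between the pools among those compared, which leaves out Ihh for its low counts.

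Genes that relay the signal inside the cell were expressed throughout. The cilium and relay list was detected in 11 of 11 cases with a median of 18.6 TPM, led by the kinesin subunit Kif3a at 103 ± 13.8 TPM and the dynein chain Dync2h1 at 25.9 ± 0.0283 TPM. Kif7, the kinesin that organises the ciliary tip and binds Gli proteins, was its lowest at 5.74 ± 0.410 TPM. The list of Gli kinases and degradation factors was detected in 13 of 13 cases with a median of 123 TPM, above the mean of each of the 10 genes, Gas1 included. Prkar1a, the regulatory subunit of protein kinase A, led it at 335.5 ± 16.6 TPM, followed by the casein kinase Csnk1a1 at 258 ± 7.74 TPM, and Gsk3a was the lowest at 13.1 ± 0.856 TPM. In neither list did a member pass 1.5-fold between the pools.

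Target genes of the pathway spread over a wide range. Of the 18 listed ones 13 were detected, with a median of 4.02 TPM. The cell-cycle regulators Ccnd2, at 1115 ± 83.4 TPM, and Ccnd1, at 184 ± 23.2 TPM, were the highest, and both respond to many other inputs. Foxl1, a mesenchymal factor, was the lowest at 0.21 ± 0.0990 TPM. Between the pools 2 of the 18, Nkx2-1 and Foxa1, were past 1.5-fold higher in pool 1, and 4, Foxf1, Foxc1, Foxa2 and Foxl1, in pool 2, named here after their values were seen, beside 11.2% of all genes in either direction. Several of them rest on few counts, with 3 and 41 for Foxf1, 9 and 20 for Foxa2 and 8 and 16 for Foxl1. With ERCC scaling 1 of the 18 was past 1.5-fold higher in pool 1 and 7 in pool 2. That scaling shifts all genes towards pool 2 (median log2 ratio -0.17), and the 11.2% holds for TMM scaling only. The count of 7 is therefore not a result about targets. Foxa2, which marks the floor plate, read 0.22 and 0.52 TPM. The related zinc-finger factors were detected in 3 of 3 cases, with Glis2 at 19.0 ± 2.52 TPM, Glis1 at 2.83 ± 0.262 TPM and Glis3 at 1.85 ± 0.240 TPM.

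**Figure D5:**
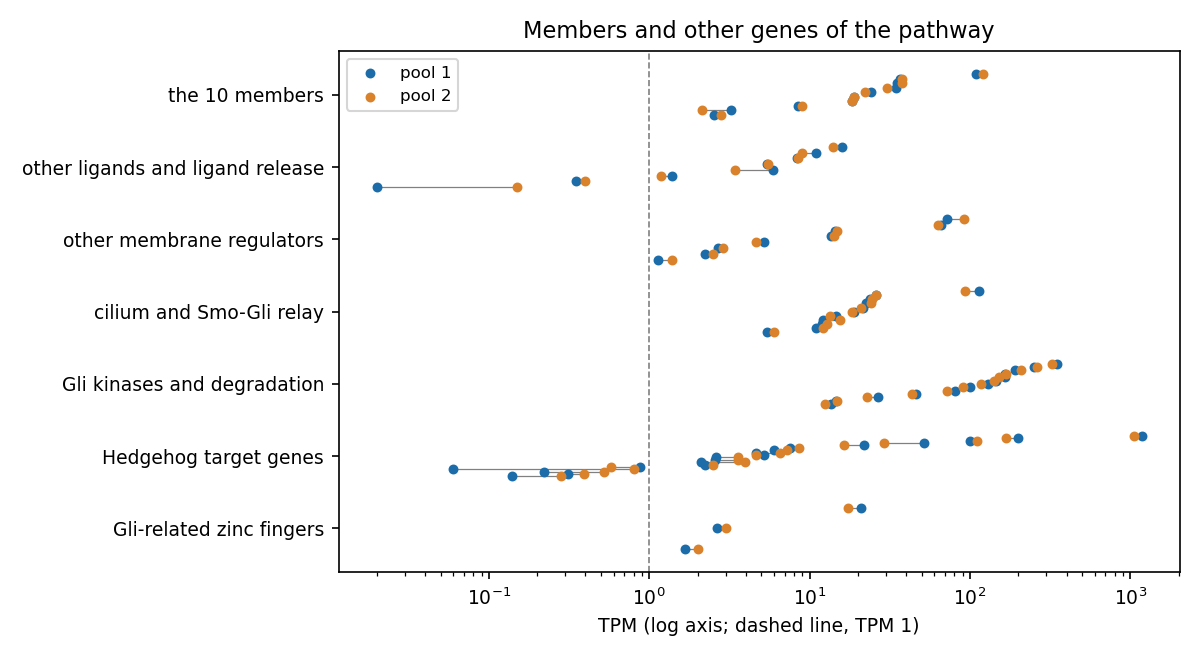
TPM in pool 1 and pool 2, on a log axis, of the 10 genes and of the members of 6 further pathway lists, each gene as a pair of joined points. The kinases and degradation factors sit highest as a group, and only ligand and target genes fall below the dashed line at TPM 1.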

How the data were processed

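Polyadenylated RNA of 2 forebrain libraries was used. Per the file headers and the README, the authors deposited gene and transcript tables for mm10 with GENCODE M21 and M4. The deposited expected counts are estimated reads, not normalised. The authors' deposited TPM and FPKM values are per effective length. Deposited percent values give a transcript's share of its gene's TPM, and the deposited posterior mean TPM was treated as a score. The column layout is that of RSEM, but aligner, quantifier, versions and use of strand are not stated in the labels or headers used. Entries that name no gene (5.96e-05% and 9.3e-05% of counts) were left out.

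M21 was the main release, and all 55536 identifiers matched its annotation (GRCm38). Counts were rounded to whole numbers and scaled with edgeR 4.0.16 (TMM, mean count of at least 10, prior count 1) in R 4.3.3, with DESeq2 1.42.0 size factors, total counts and ERCC totals as alternatives. Ratio intervals are exact binomial at 95%, and a count of 0 allows up to 3 counts. The TMM scaling and its log2 ratios were tested on simulated counts, with known folds set only on genes of higher count. The other scalings and the intervals were not tested in that way. Python 3.11.15, numpy 2.4.6, pandas 2.3.3 and scipy 1.17.1 did the rest.

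All 10 genes were named, with transcripts of at least 5% of a gene's TPM, and from other lists the 2 highest, the lowest and genes alone on a side of TPM 1, or the leading marker. Dhh, Hhip, Hhat, Kif7, Foxa2 and the opposite-strand genes were added for their role. Some listed genes are not reported here. Genes and lists were chosen with earlier results of these data known.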

Additional observations from a re-analysis of the deposited data

How the results depend on the processing

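The count of detected genes stayed at 10 with the M4 tables, posterior mean TPM, FPKM, thresholds of 0.5 and 2 TPM and each pool alone, and was 8 at a threshold of 5 TPM. The median of 21.1 TPM became 25.7 TPM when TPM was rescaled over protein-coding genes only, a change of scale that raises every gene, and ranged from 20.5 to 21.6 TPM with 1 pool left out. The count of genes past 1.5-fold between pools, 1 in the main scaling, was 0 with ERCC totals, 0 as a ratio of TPM + 1 and 0 at a 2-fold threshold. It stayed at 1 with DESeq2 size factors, total counts and M4 tables. A lower fold threshold could only raise it and left it at 1. Removing the count filter could not change it, since all 10 genes averaged more than 10 counts. With ERCC totals, which lowered the ratio of all genes to a median of -0.165, the ratio of Boc changed sign, to -0.019, as did those of Ptch1, Gli2 and Gli3 by construction of that shift. As a ratio of TPM + 1, Gli2 (-0.07), Gli3 (-0.04) and Cdon (0.008) changed sign from the main scaling. The cause was not tested. Of 50 values of single-gene levels under alternatives, 18 moved by more than 1 SD between pools. Of these 9 moved by that rescaling, 5 with posterior mean TPM and 4 with M4 tables. Of 40 leading transcript shares 13 moved, 7 by estimated counts and 6 by posterior mean share. Both totals include 10 values for each pool left out, which cannot move by more than 1 SD when n = 2. No paired analysis was possible because the series has 1 group. Depth limits Shh and Gli1 most, with under 250 counts in each pool.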
